A study of Mus musculus with 2 samples.

Results

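The transcripts described here encode AMP-activated protein kinase (AMPK) and the kinase that switches it on, LKB1, in fast and slow skeletal muscle fibres of the mouse. They are the 8 genes Prkaa1, Prkaa2, Prkab1, Prkab2, Prkag1, Prkag2, Prkag3 and Stk11. The set was drawn up by gene name, but earlier results of these data were known, so the choice was not blind to them. Array probes were assigned to them through RefSeq transcript accessions, which gave 12 probes among 56596 kept on the array, and 8 genes among 23458 with a matched probe. All 12 probes were well above background in both pools, and none was saturated.

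Fibres were taken from 8 male mice aged 6 to 8 weeks, all GFP-Myh7 heterozygous (G/+), so that both groups carried 1 copy of the tagged slow myosin allele. The fast group was 1 pool of 4447 fibres without GFP from the extensor digitorum longus (EDL), a fast-twitch muscle of the shin. The slow group was 1 pool of 1659 GFP-positive fibres from the soleus, a postural calf muscle. The tissue label of the slow sample reads EDL, but the soleus is named both in its source label and in the treatment protocol and was taken as its origin, so that fibre type and muscle of origin cannot be told apart. Each pool was hybridised to 1 array, so no difference below has a replicate check or a test, and precision is limited by the number of arrays. The error given with each signal is the one the scanner software estimated for that spot, and it does not cover variation between animals, dissections or labelling reactions. For the brightest probe of each member it was nearly the same share of the signal. The resulting errors of the log2 differences were 0.204 to 0.206, so they hardly rank the members by precision.

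AMPK is a trimer of a catalytic alpha, a scaffolding beta and a nucleotide-binding gamma subunit. AMP and ADP displace ATP on the gamma subunit when cellular energy falls, and LKB1, encoded by Stk11, phosphorylates the alpha subunit. The active kinase turns on fatty acid oxidation, glucose uptake and autophagy and restrains biosynthesis. Each subunit has more than 1 gene, and in skeletal muscle the trimer of the products of Prkaa2, Prkab2 and Prkag3 is known chiefly from fast glycolytic fibres.

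Of the 8 genes, 3 passed the size rule used in place of a test, a 2-fold difference, with the higher level in fast fibres, and all 3 encode regulatory subunits: Prkag3, Prkab2 and Prkag2. This is 37.5% of the genes, against 14.2% of all 14646 genes well above background on at least 1 array. No member was 2-fold higher in slow fibres, where 10.7% of all genes were. Both catalytic subunit genes, Prkab1, Prkag1 and Stk11 stayed within 2-fold. In pooled fibre RNA, fewer fibres expressing a gene and less of its RNA per fibre cannot be told apart.

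**Figure D1:**
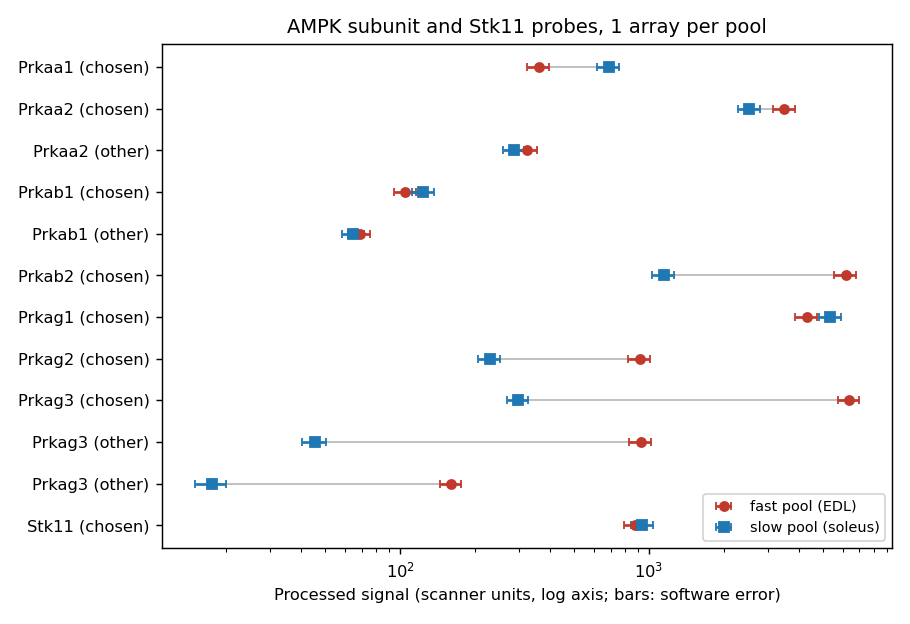
Processed signal (scanner units, log axis) of the 12 probes in the fast pool (red circles) and the slow pool (blue squares), with bars for the software error and 1 array per pool. The 3 Prkag3 probes and those of Prkab2 and Prkag2 are far brighter in the fast pool, whereas the bars of both Prkab1 probes, the dimmer Prkaa2 probe and Stk11 overlap.

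Prkag3 encodes the gamma subunit found mainly in skeletal muscle, and a variant of the pig gene is known to raise muscle glycogen. Its brightest probe read 6350 ± 635 scanner units in fast fibres and 298 ± 29.8 in slow fibres. After each array was set to its own 75th percentile, the difference was -4.51 ± 0.20 on the log2 scale (slow minus fast, as throughout), or 22.8-fold higher in fast fibres. The slow pool thus held 4.38% of the fast level. The other probes for the same accession, NM_153744, gave the same direction. The second read 926 ± 92.7 in fast fibres and 45.4 ± 4.93 in slow fibres, a difference of -4.45 ± 0.21, and of -3.42 with another background correction (normexp with quantile normalization). The dimmest read 160 ± 16.1 and 17.5 ± 2.49, a difference of -3.29 ± 0.25 or 9.77-fold. Its slow-fibre signal lies close to the background, and under the same correction its difference was -1.70, still past 2-fold. The 3 probes spanned 1.23 on the log2 scale, wider than the median span of 0.23 over the 4465 genes with several probes measured on both arrays. At least 0.492% of all 14646 genes lay further towards fast fibres than Prkag3. Such shares count genes above background on 1 array at their bound, so they are minimum shares.

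Prkab2 encodes the beta subunit prominent in skeletal muscle, whose carbohydrate-binding module attaches the kinase to glycogen. Its only probe (NM_182997) read 6167 ± 617 units in fast fibres and 1146 ± 115 in slow fibres. The difference was -2.53 ± 0.20, or 5.76-fold higher in fast fibres, with at least 2.38% of all genes further towards fast fibres. The slow pool held 17.4% of the fast level, a larger remainder than for Prkag3.

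The promoters of these 2 genes are shown because they carry the largest differences among the members. Each is the 250 bases before a transcript start in RefSeq on GRCm38.p6, given 5′ to 3′ on the gene's strand. Capitals mark the E-box CAGCTG, a site type bound by myogenic basic helix-loop-helix factors. The Prkag3 window is chr1:74748956-74749205 on the minus strand and the Prkab2 window is chr3:97657962-97658211 on the plus strand. The annotated Prkag3 gene begins further upstream, at 74749471, so its window lies inside the gene.
Prkag3: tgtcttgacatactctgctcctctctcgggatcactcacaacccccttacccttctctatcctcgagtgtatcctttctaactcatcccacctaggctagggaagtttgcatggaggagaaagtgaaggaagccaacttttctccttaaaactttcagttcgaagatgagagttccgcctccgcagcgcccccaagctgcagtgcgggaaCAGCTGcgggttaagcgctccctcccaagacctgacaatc
Prkab2: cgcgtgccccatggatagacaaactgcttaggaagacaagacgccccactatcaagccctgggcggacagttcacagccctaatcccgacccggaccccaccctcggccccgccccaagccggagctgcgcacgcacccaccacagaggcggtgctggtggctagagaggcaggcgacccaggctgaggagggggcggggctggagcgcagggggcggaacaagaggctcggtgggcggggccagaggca
The Prkag3 window holds 1 such E-box, 40 to 35 bases before the transcript start used, and the Prkab2 window holds none. Among the 32851 RefSeq promoter windows of the same length, 13.0% contain CAGCTG, which reads the same on both strands. In both windows, 4 other motifs were searched on both strands without a match. They were a MEF2 site written as CTA and TAG with 4 bases between them (in 3.20% of all windows), the core TGCTGA of sites for large Maf factors (16.1%), the ERR site TCAAGGTCA (0.387%) and the MEF3 site TCAGGTT (3.49%). The 8 windows of the other 6 members, 3 of them for Prkag2, held none of the 5 motifs either. Guanine and cytosine made up 52.4% of the Prkag3 window and 69.2% of the Prkab2 window, with a median of 52.4% over all windows. A match describes these letters only, and binding was not measured.

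The remaining gamma genes parted from each other. Prkag2, the gamma subunit best known from the heart, read 916 ± 91.6 units in fast fibres and 229 ± 23.0 in slow fibres by its only probe (NM_145401). The difference was -2.10 ± 0.20, or 4.28-fold higher in fast fibres, and at least 3.76% of all genes lay further in that direction. Prkag1, the broadly expressed gamma subunit, read 4293 ± 429 in fast fibres and 5347 ± 535 in slow fibres (NM_016781). Its difference of 0.22 ± 0.20 was about the size of its software error. Prkag3 and Prkag2 were thus lower in slow fibres on these arrays while Prkag1 stayed near an equal level by this scaling. Scaling to the spike-in controls, RNAs added in graded amounts, put Prkag1 at 0.64 towards slow fibres, still within 2-fold.

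The catalytic genes stayed within 2-fold and stood on opposite sides of 0. Prkaa1, the alpha subunit of most tissues, read 361 ± 36.1 units in fast fibres and 687 ± 68.8 in slow fibres by its only probe (NM_001013367), a difference of 0.83 ± 0.20 or 1.78-fold higher in slow fibres. It was the member furthest towards slow fibres, with at least 14.0% of all genes beyond it. Spike-in scaling took it past 2-fold, at 1.25. Prkaa2, the alpha subunit prominent in muscle, read 3495 ± 350 in fast fibres and 2528 ± 253 in slow fibres by its brighter probe (NM_178143). That difference was -0.57 ± 0.20, or 1.48-fold higher in fast fibres. Its second probe read 323 ± 32.3 and 287 ± 28.8, a difference of -0.27 ± 0.20, which turned to 0.15 under spike-in scaling, where the brighter probe stood at -0.15.

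Prkab1, the beta subunit of most tissues, was dim in both pools and did not separate them. Its brighter probe (NM_031869) read 105 ± 10.6 units in fast fibres and 124 ± 12.6 in slow fibres, a difference of 0.15 ± 0.21. The other probe read 68.9 ± 7.05 and 64.9 ± 6.73, a difference of -0.18 ± 0.21, so the direction turned with the probe. Under spike-in scaling the brighter probe stood at 0.56 and the other at 0.23, both within 2-fold. Stk11 (NM_001301853), the upstream kinase gene, read 878 ± 87.8 units in fast fibres and 939 ± 93.9 in slow fibres. Its scaled levels differed by 0.00 ± 0.20 on the log2 scale, and the scalings placed it from -0.11 to 0.42.

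**Figure D2:**
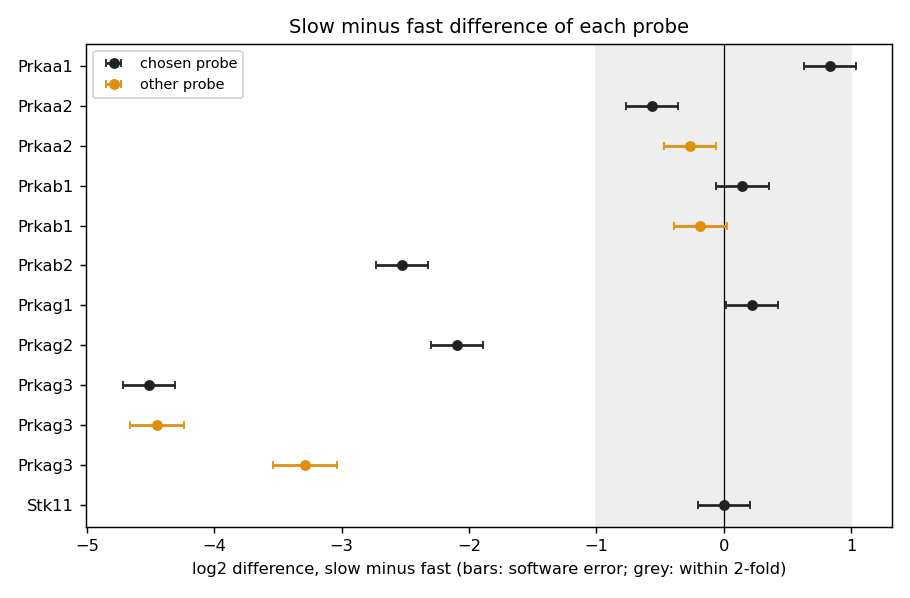
Log2 difference, slow minus fast, of each of the 12 probes, with bars for the software error, black for the probe that represents the gene and orange for its other probes, and the range within 2-fold in grey. The probes of Prkag3, Prkab2 and Prkag2 lie from -4.51 to -2.10, outside the grey range, and the others from -0.57 to 0.83.

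Because 1 scaling factor applies to all genes of an array, the difference of 2 genes' differences does not depend on it, and it shows whether isoforms of 1 subunit moved unequally. The difference of Prkag3 minus that of Prkag1 was -4.73 ± 0.29 on the log2 scale, so their ratio was 26.6-fold lower in slow fibres. For Prkab2 minus Prkab1 it was -2.67 ± 0.29, or 6.37-fold, and for Prkag2 minus Prkag1 it was -2.32 ± 0.29, or 4.98-fold. The smallest of these shifts was that of Prkaa2 relative to Prkaa1, at -1.40 ± 0.29, or 2.63-fold, although neither gene passed 2-fold by itself. Under the 10 alternatives tried, these ratios ranged from -4.75 to -4.44 for Prkag3, from -2.75 to -2.51 for Prkab2, from -2.34 to -2.12 for Prkag2 and from -1.40 to -1.25 for Prkaa2. Alternatives that only change the scaling factor, such as spike-in scaling, could not move these ratios, so their agreement carries no information. No alternative used the dimmest Prkag3 probe (-3.29), the second Prkaa2 probe (-0.27) or the dimmer Prkab1 probe (-0.18) by itself. Each of these probes would give a smaller shift, outside these ranges. In each of the 3 subunits, the isoform known for skeletal muscle thus had a lower slow-to-fast ratio than the broadly expressed isoform. The same held for Prkag2, best known from the heart, relative to Prkag1. None of these shifts has a replicate check.

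**Figure D3:**
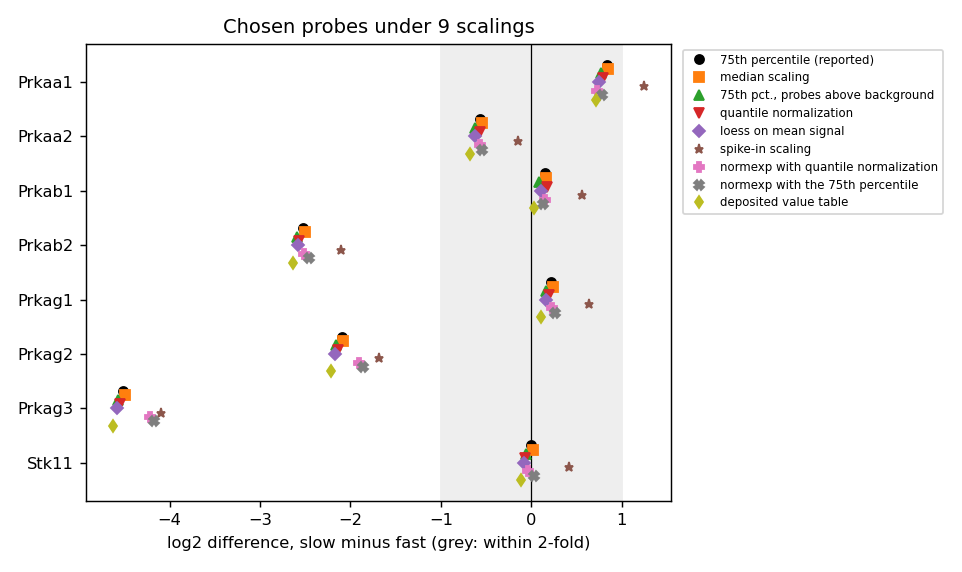
Log2 difference, slow minus fast, of the 8 genes by their chosen probe under 9 ways of scaling or background correction, with the range within 2-fold in grey. Prkag3, Prkab2 and Prkag2 stay outside the grey range under all 9, between -4.63 and -1.68, and Prkaa1 leaves it under spike-in scaling alone, at 1.25.

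The myosin heavy chains that define fibre types set the scale of these differences. Myh7, the slow chain whose GFP tag guided the picking, read 1094 units in the fast pool and 316863 in the slow pool. Myh4, the chain of the fastest fibres, stood in the slow pool at 0.0336% of its fast level, and Myh1, the IIX chain, at 0.874%. Myh2, the IIA chain, stood at 27.9%, with a difference of -1.84 by this probe and -1.38 by its other probe. All 10 fast-fibre markers checked were past 2-fold towards the fast pool and all 9 slow-fibre markers towards the slow pool, as the labels of the pools have it. The slow-pool remainders of Prkag3 (4.38%), Prkab2 (17.4%) and Prkag2 (23.4%) all lay above those of Myh4 and Myh1 and below that of Myh2. Prkag2 and Myh2 were close, at -2.10 ± 0.20 and -1.84 ± 0.20. Under normexp with the 75th percentile they stood at -1.86 and -1.81, so their order is uncertain.

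Markers of other cells also differed between the pools. For the counts that follow, the shares of all genes past 2-fold were 14.2% towards fast and 10.7% towards slow fibres. Of 10 endothelial markers, 9 passed 2-fold with the higher level in fast fibres, and the summed level of all 10, in multiples of each array's 75th percentile, was 24.6 there and 5.94 in slow fibres. Of 10 fibroblast markers 9 were higher there, with summed levels of 172 and 43.1, and all 6 measured erythrocyte markers, with 95.7 and 35.9. Of 9 smooth muscle and pericyte markers 4 were higher in fast fibres and 1 in slow fibres, with summed levels of 796 and 722 and a median log2 difference of -0.91. For the 8 Schwann cell markers these were 4 and 2 markers, 9.86 and 20.1, and a median of -0.96, and for the 5 tendon markers 3 and 1 markers, 18.9 and 24.8, and a median of -1.33. The brightest gene weighs most in such a sum, and 6 of the 8 Schwann cell markers were lower in slow fibres although their sum was higher. Of 10 immune markers 2 were higher in fast fibres (30.8 and 21.2), of 5 adipocyte markers 1 (18.7 and 8.34) and of 4 satellite cell markers 1 (0.737 and 0.314). The immune markers Ptprc, Adgre1, Lyz2, Cd79a and C1qa, the adipocyte markers Adipoq, Plin1 and Cidec, and the satellite cell markers Myf5 and Calcr were not well above background in either pool. All sums and medians here cover only markers measured on both arrays. They leave out Dpt (fibroblast), Slc4a1 (erythrocyte) and Mkx (tendon), which cleared the background in fast fibres alone. The part of such cells in the differences of the AMPK genes, or of the pathway genes described below, was not tested.

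Of the kinases, partners and phosphatases that act on AMPK, 10 were measured on both arrays, 1 of which passed 2-fold towards slow fibres and none towards fast fibres. Over all genes the shares were 10.7% and 14.2%. The median difference of the 10 genes was 0.56, against 0.05 over all genes. The LKB1 partner genes Strada, Stradb, Cab39 and Cab39l, which encode the pseudokinases and scaffolds that activate LKB1, were among those within 2-fold. Ppp2ca, a catalytic subunit of protein phosphatase 2A, read 2127 units in fast fibres and 5003 in slow fibres and was 2.20-fold higher in slow fibres. Camkk1, a calcium-dependent kinase related to the AMPK kinase Camkk2, cleared the background in fast fibres alone, at 16.1 units, and was at least 1.96-fold higher there, a bound that leaves its side of 2-fold unknown. Ppm1e was not well above background in either pool.

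Partners that link AMPK to nutrient sensing had 2 of 8 genes past 2-fold towards slow fibres, none towards fast fibres, and a median of 0.43. Of all genes, 10.7% passed 2-fold towards slow and 14.2% towards fast fibres. Fnip2, a partner of folliculin that binds AMPK, read 54.3 units in fast fibres and 203 in slow fibres, a 3.49-fold difference by the only probe measured on both arrays, with a log2 difference of 1.80 that was 1.06 under normexp with the 75th percentile. Sesn1, a stress-induced sestrin, was 2.02-fold higher in slow fibres and stood just below 2-fold under several scalings, down to 0.90 on the log2 scale.

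AMPK-related kinases, which LKB1 also phosphorylates, went both ways. Of 11 measured genes, 3 passed 2-fold towards slow fibres (10.7% of all genes) and 2 towards fast fibres (14.2% of all genes), with a median of 0.17. Mark1, a kinase of microtubule-associated proteins, read 22.5 units in fast fibres and 346 in slow fibres, a difference of 3.84, and its other probe gave 4.14. With normexp and the 75th percentile it was 2.29. Nuak1 read 903 units in fast fibres and 4884 in slow fibres, a 5.05-fold difference. Brsk1, known mainly from neurons, was dim (12.2 and 38.8 units) and 2.98-fold higher in slow fibres by 1 probe, while its other probe gave 0.13 and normexp with the 75th percentile 0.39. Sik2, a salt-inducible kinase, was 2.92-fold higher in fast fibres, at 260 and 95.1 units, and its 3 probes ran from -1.63 to -1.11. Nuak2, at 46.4 and 18.7 units, was 2.65-fold higher in fast fibres and at -0.39 under normexp with quantile normalization.

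AMPK substrates ran from -4.34 to 3.09, with a median of 0.06. Of the 22, 4 passed 2-fold towards fast fibres (14.2% of all genes) and 2 towards slow fibres (10.7% of all genes). The paralogous Rab GTPase-activating proteins that hold back glucose transporter vesicles went in opposite directions. Tbc1d1 read 4527 units in fast fibres and 239 in slow fibres and was 20.3-fold higher in fast fibres, with -1.97 by its other probe. Tbc1d4 read 58.7 units in fast fibres and 533 in slow fibres and was 8.49-fold higher in slow fibres, its 3 probes running from 2.77 to 3.39 and the chosen one at 2.29 under both normexp settings. Pfkfb3, which makes and degrades the fructose bisphosphate that activates glycolysis, was 5.35-fold higher in fast fibres, at 8411 and 1681 units, with -2.04 by its other probe. Nos3, the endothelial nitric oxide synthase, was 2.48-fold higher in fast fibres, beside the endothelial markers given above, and Srebf1, a lipogenic transcription factor, 2.10-fold. Under spike-in scaling these stood at -0.89 and -0.65, within 2-fold. Lipe, the hormone-sensitive lipase, was dim at 14.4 and 32.3 units, 2.10-fold higher in slow fibres, and at 0.28 with normexp and the 75th percentile. The acetyl-CoA carboxylase genes Acaca and Acacb and the autophagy kinase gene Ulk1 were within 2-fold.

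Of 10 genes that set the balance of adenine nucleotides, which AMPK reads, 2 passed 2-fold towards fast fibres, against 14.2% of all genes. None passed it towards slow fibres, against 10.7% of all genes, and the median was -0.74. Ampd1, the muscle AMP deaminase, read 31759 units in fast fibres and 10595 in slow fibres, a 3.21-fold difference. Ckm, the muscle creatine kinase, was 2.66-fold higher in fast fibres, at 133232 and 53616 units. Spike-in scaling left Ampd1 past 2-fold, at -1.26, but not Ckm, at -0.99.

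**Figure D4:**
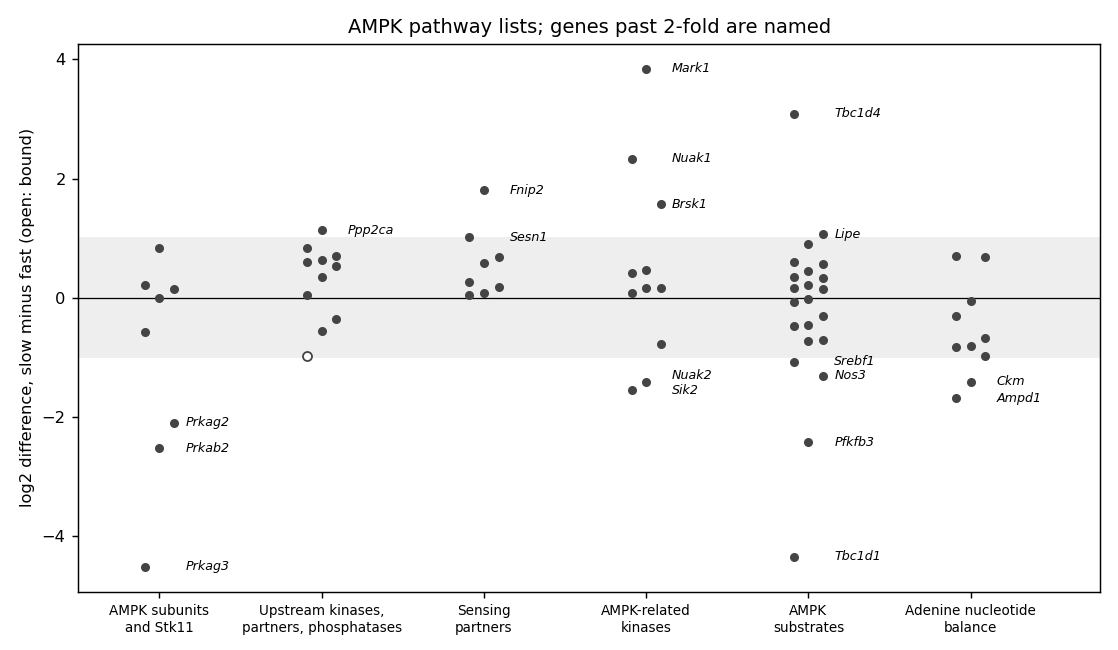
Log2 difference, slow minus fast, of each measured gene of the 8 members and the 5 pathway lists, 1 point per gene, with an open point for a bound and the range within 2-fold in grey. Of the 62 measured genes outside the members, 8 lie at least 2-fold towards fast and 8 towards slow fibres, and Tbc1d1, by its brighter probe, lies nearest to Prkag3.

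Over the 5 lists together, 8 of 62 measured genes (12.9%) passed 2-fold towards fast fibres and 8 (12.9%) towards slow fibres, with Camkk1 at its bound, near the shares of all genes given above. Among the 61 of them measured on both arrays, the gene nearest to Prkag3 by its difference was Tbc1d1, 0.17 away on the log2 scale, followed by Pfkfb3 at 2.09, but the other Tbc1d1 probe, at -1.97, lies further from Prkag3 than Pfkfb3 does. For Prkab2 the nearest were Pfkfb3, 0.11 away, and Ampd1, 0.84 away, and for Prkag2 the same genes, 0.32 and 0.42 away. With 2 arrays this closeness is a single number per gene and describes size only.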

How the data were processed

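Intensities were measured on 2 one-colour Agilent arrays, 1 per pool, and each Cy3 labelling used 0.1 µg of RNA, per the labels' protocols. The deposited scanner files hold linear intensities that come, per the submitters' processing notes, from Agilent Feature Extraction 12.0.3.1, background-subtracted and detrended within each array and not normalized between arrays, with a software error and with 0 or 1 flags per spot as other values. In the value table that the authors deposited, each intensity equals the processed one times a constant, 2.83 for the fast and 2.45 for the slow array (column medians 30.1 and 27.1). These values are linear and not centred, and the target of the constants is unknown. Of 59305 non-control spots, 52.3% cleared the background in fast and 50.9% in slow fibres.

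Here, 159 spots with an outlier flag were removed, repeated spots were averaged, and log2 intensity minus each array's 75th percentile was compared, slow minus fast, with R 4.3.3, limma 3.58.1, Python 3.11.15 and pandas 2.3.3. Unversioned accessions were looked up in a RefSeq table (assembly GRCm38.p6, names only), which named 33763 of 56596 probes. The brightest probe above background on at least 1 array stood for a gene. A gene above background on 1 array only got a bound, against the higher of its dim signal and the lowest signal well above background there. In all, 12852 genes were measured on both arrays, 1157 on the fast array alone and 637 on the slow array alone. Spots of 291 repeatedly printed probes varied in their log2 difference with an SD of 0.05 (median over probes), and the calculation was tested on simulated data. The alternatives changed scaling, background correction, probe choice, the filter and the size rule.

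Members and lists were chosen with earlier results of these data known. The genes named are all members, in each pathway list every gene past 2-fold or else the 2 farthest from 0, the 2 pathway genes nearest to each member past 2-fold, and Myh7, Myh4, Myh1 and Myh2. Strada, Stradb, Cab39, Cab39l, Camkk2, Acaca, Acacb, Ulk1 and Ppm1e were named after their values were seen. Protein and probe sequences were not used here, and 1 gene of the lists is not reported here.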

Additional observations from a re-analysis of the deposited data

How the results depend on the processing

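The 3 members higher in fast fibres stayed past 2-fold under all 12 alternatives, and no called difference or isoform ratio changed sign. The count of members higher in slow fibres became 1, Prkaa1, under spike-in scaling and at 1.5-fold. The Prkag3 to Prkag1 ratio moved to -4.44 under normexp with the 75th percentile. Pathway genes higher in fast fibres numbered 8, and 4 under spike-in scaling, 16 at 1.5-fold and 3 at 3-fold. Those higher in slow fibres numbered 8, and 17 under spike-in scaling, 17 at 1.5-fold, 4 at 3-fold and 5 under normexp with the 75th percentile. Spike-in scaling, from 8 of 10 controls well above background on both arrays, added 0.42 to every log2 difference and moved the median of all genes to 0.47; the cause of its offset was not tested. The other settings left that median between -0.06 and 0.07. Choosing among probes by design symbol was not run, since the files used hold accessions only. Median spot intensities stood in for means under normexp. Dim probes limit Brsk1, Lipe, Nuak2, Fnip2, Mark1, Tbc1d4 and the dimmer Prkag3 probes, whose differences shrank under normexp. No paired analysis was possible because each group has 1 array.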
